A study of Drosophila sechellia and Drosophila simulans with 8 samples.

Results

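The proteasome was followed gene by gene in bodies of adult females of Drosophila sechellia and Drosophila simulans. Members were the probe sets whose single annotated gene symbol names a subunit of the core particle (Prosalpha, Prosbeta) or of the regulatory particle (Rpn, Rpt), or a paralogue of one. They came to 40 genes, each with 1 probe set, of 11982 genes named on the array. Of these, 12 were ordinary core subunits, 14 were ordinary subunits of the regulatory particle, and 14 were paralogues with the suffix T or R, called testis-type here after their symbols. A further probe set carries both Prosalpha1 and Prosalpha1R and was not counted.

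The series holds 8 one-colour Affymetrix arrays in 4 groups of 2: sechellia choice, sechellia no choice, simulans choice and simulans no choice. Choice refers to a blend of octanoic and hexanoic acid, and all flies were reared on the same cornmeal medium at one temperature. The sources used here give no strain, age, length of exposure or alternative offered. Arrays carry a number within their group, with no word on whether they are separate flies. The p-values therefore cover only the variation among these samples, possibly technical. A body mixes tissues, and fewer cells of a type cannot be told apart from less RNA per cell. The probes were designed for Drosophila melanogaster, so a difference in probe match between the species cannot be told apart from a difference in RNA.

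The proteasome is the cell's main protease for proteins tagged with ubiquitin. Its core is a barrel of stacked rings: the outer alpha rings gate the entrance, and the inner beta rings carry the proteolytic sites. The regulatory particle caps the barrel. Its base holds the ATPases of the Rpt ring, which unfold substrates, and its lid carries the enzyme that removes ubiquitin. Fly males express alternative subunits in the germ line, encoded by paralogues of the ordinary genes.

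Array 1 of sechellia choice was unlike the remaining 7, which correlated with each other at Pearson r 0.912 to 0.969 over 13138 tested probe sets. Its own r with them was 0.674 to 0.720. The median signal of its 27 Bacillus control probe sets, which match no fly RNA, was 126.4, against 12.3 to 21.5 on the others. The ordinary proteasome members read 23.1% to 82.3% of their level on array 2 of the same group, with a median of 52.1%, whereas the testis-type paralogues read 217% to 5039% of it. Signals are therefore given for this array by themselves. The fit used the 7 other arrays, so that sechellia choice rests on its array 2 there, with the spread taken from the groups that have 2 arrays. Each count is also given with all 8 arrays.

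All 26 ordinary members were well expressed. On the 7 arrays their signals lay between 1314 and 9114.7, above the highest Bacillus control of each array, which reached 61.3 to 137.2. On array 1 of sechellia choice 23 of 26 lay above its highest control, 757.6. The 2 arrays of a group differed little for these genes. The median gap was log2 0.06 in sechellia no choice, 0.07 in simulans choice and 0.08 in simulans no choice, with a largest gap of 0.63, for Rpt2 in simulans no choice.

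Without choice, more regulatory particle genes were higher than lower in sechellia, and the core genes were split. Of 14 regulatory particle members 8 were higher and 1 lower (limma, Benjamini-Hochberg adjusted p below 0.05), with a median log2 difference, sechellia minus simulans, of 0.26. Of 12 core members 3 were higher and 2 lower, with a median of -0.02. The median over all tested probe sets was 0.04. In all, 14 of the 30 members tested were called, 11 higher and 3 lower. The species differ widely on this array: 28.2% of all tested probe sets were called, and 51.0% of the 1877 that were at least as bright as the dimmest ordinary member. Against that share, 53.8% of the ordinary members is near the background. The higher calls were 14.5% of all tested probe sets and 28.3% of the bright ones, and the lower calls 13.7% and 22.7%. Both sechellia arrays lay above both simulans arrays for 13 of the 26 ordinary members and below for 8, where 35.0% and 28.4% of all tested probe sets did so. For this and every later count of groups that do not overlap, the share among the bright probe sets alone was not taken. An excess over all tested probe sets is therefore not an excess over probe sets of like brightness. With all 8 arrays no member was called, against 4.22% of all probe sets. In that fit 6 members and 2007 of the 13138 tested probe sets had an unadjusted p below 0.05. The log2 differences are the same in that fit, because array 1 of sechellia choice enters only the estimate of spread.

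**Figure D1:**
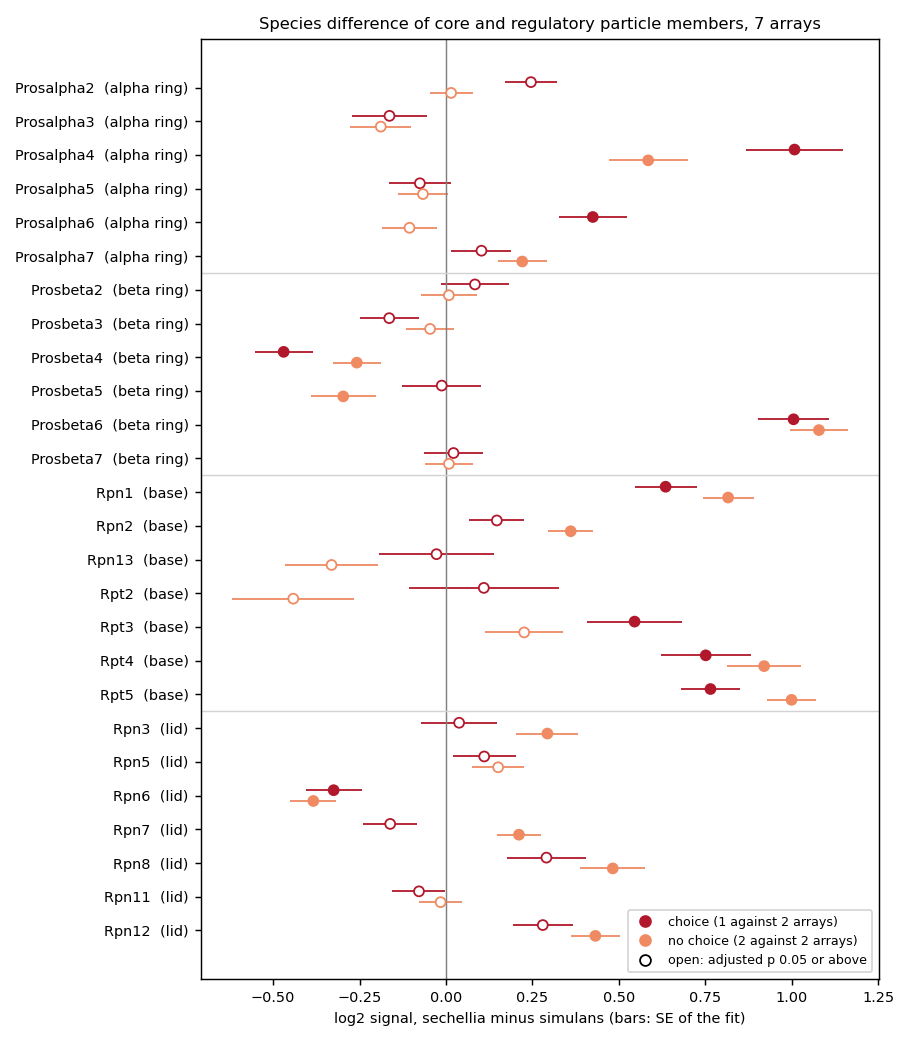
Species difference of the 26 ordinary members, as log2 signal in sechellia minus simulans (x axis), under choice (dark red, 1 against 2 arrays) and no choice (orange, 2 against 2 arrays), with 7 arrays. Bars are the standard error of the limma fit and filled points have an adjusted p below 0.05. Prosbeta6 and Rpt5 stand farthest to the right in no choice, at 1.08 and 0.999, and Rpn6 and Prosbeta4 lie left of 0 in both treatments.

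The ATPases Rpt5 and Rpt4 had large differences between the species. Rpt5 (probe set 1629676_at) gave 7097.9 and 7283.1 on the sechellia no choice arrays, against 3413.9 and 3789.3 on the simulans no choice arrays. It was higher in sechellia by log2 0.999 ± 0.07 (SE, n = 2 arrays per group, limma adjusted p = 2.22e-05), a 2.00-fold signal. Both sechellia arrays stood far above both simulans arrays. Rpt4 (1640710_at) gave 2767.8 and 3184.7 in sechellia no choice, against 1708.3 and 1441.3 in simulans no choice, a difference of log2 0.92 ± 0.11 (adjusted p = 0.000346).

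The 2 other ATPases measured did not pass the test in no choice. Rpt3 gave 2441.5 and 2752.5 in sechellia, against 2162.3 and 2271.5 in simulans, at log2 0.23 ± 0.11 (adjusted p = 0.182). Rpt2 gave 1500.7 and 1716.2 in sechellia, against 2710.5 and 1752.7 in simulans, at log2 -0.44 ± 0.18 (adjusted p = 0.102). The simulans arrays disagree for Rpt2: array 1 was far above array 2. Without array 2 of simulans no choice Rpt2 was at log2 -0.76, and without array 1 at -0.13.

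Among the other base subunits, the scaffold proteins Rpn1 and Rpn2 were higher in sechellia. Rpn1 (1637349_at), which docks ubiquitin receptors, gave 5140.9 and 5307.7 in sechellia no choice, against 2819.5 and 3122.9 in simulans no choice (log2 0.82 ± 0.07, adjusted p = 8.7e-05). Rpn2, which holds Rpn13, gave 3260.9 and 3255 in sechellia, against 2494.2 and 2581.4 in simulans (log2 0.36 ± 0.07, adjusted p = 0.00374). Rpn13, a ubiquitin receptor of the proteasome, gave 2219.9 and 2007 in sechellia, against 3118.7 and 2260.4 in simulans, at log2 -0.33 ± 0.14 (adjusted p = 0.109). It did not pass with 7 arrays. The value depends on which simulans array is kept: without array 2 of simulans no choice Rpn13 was at -0.56, and without array 1 at -0.10. Of the 7 base members, 4 were called higher and none lower, with a median of 0.36.

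The lid had 4 members higher and 1 lower of 7, with a median of 0.21. Rpn8, the inactive partner of the deubiquitinase Rpn11, gave 2865.5 and 2733.1 in sechellia no choice, against 2171.9 and 1847.8 in simulans no choice (log2 0.48 ± 0.09, adjusted p = 0.0056). Rpn12, a structural lid subunit, gave 2315.1 and 2373.5 in sechellia, against 1765.4 and 1710.2 in simulans (log2 0.43 ± 0.07, adjusted p = 0.00236). Rpn6, a lid subunit that reaches down to the alpha ring, went the other way. It gave 4310.6 and 4204 in sechellia, against 5739 and 5374.8 in simulans (log2 -0.38 ± 0.07, adjusted p = 0.00297). Rpn11 itself was at -0.02 ± 0.06 and Rpn5 at 0.15 ± 0.07, neither called.

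Rpn3 and Rpn7, the remaining structural lid subunits, had small differences. Rpn3 gave 3314.5 and 3951.5 in sechellia no choice, against 2981.4 and 2925.9 in simulans no choice, at log2 0.29 ± 0.09 (adjusted p = 0.0402). Rpn7 gave 3305.4 and 3372.5 in sechellia, against 2876.6 and 2892.6 in simulans, at 0.21 ± 0.06 (adjusted p = 0.0373). The groups do not overlap for either gene, but both calls were fragile. The Rpn7 call was lost when any of the 6 arrays other than array 2 of sechellia choice was left out, and the Rpn3 call when any of 5 was (adjusted p up to 0.129 and 0.208). Both were also lost after median centring, at 0.14 and 0.22.

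In the core, Prosbeta6 had the largest difference of any ordinary member. Prosbeta6 (1623288_at), a structural beta-ring subunit without a proteolytic site, gave 4669.8 and 5047.6 in sechellia no choice, against 2303.6 and 2294.3 in simulans no choice. The difference was log2 1.08 ± 0.08 (adjusted p = 3.6e-05), a 2.11-fold signal. Prosalpha4 (1641485_at), of the alpha ring, gave 3069.9 and 3565.3 in sechellia, against 2448.3 and 1987.5 in simulans (log2 0.58 ± 0.11, adjusted p = 0.00565).

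The other core calls were smaller and depended on single arrays, as did those of Rpn3 and Rpn7. Prosalpha7 gave 4113.1 and 4282.8 in sechellia no choice, against 3613.1 and 3591.1 in simulans no choice (log2 0.22 ± 0.07, adjusted p = 0.0482). Prosbeta4, a structural beta subunit, gave 5157.5 and 5182.1 in sechellia, against 6345.8 and 6022.1 in simulans (log2 -0.26 ± 0.07, adjusted p = 0.0227). Prosbeta5, which carries the chymotrypsin-like site, gave 4208.5 and 3701.1 in sechellia, against 4492 and 5235.3 in simulans (log2 -0.30 ± 0.09, adjusted p = 0.0447). In no choice both sechellia arrays lay on one side of both simulans arrays for these genes. The Prosalpha7 call was lost when any of the 6 arrays other than array 2 of sechellia choice was left out, the Prosbeta5 call with 4 of 7 arrays left out in turn and the Prosbeta4 call with 3 of 7. The adjusted p then reached 0.18, 0.238 and 0.103. Without an intensity trend in limma's model of the spread, 5 members were called instead of 14, all of them higher: Prosbeta6, Rpn1, Rpn12, Rpt4 and Rpt5.

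**Figure D2:**
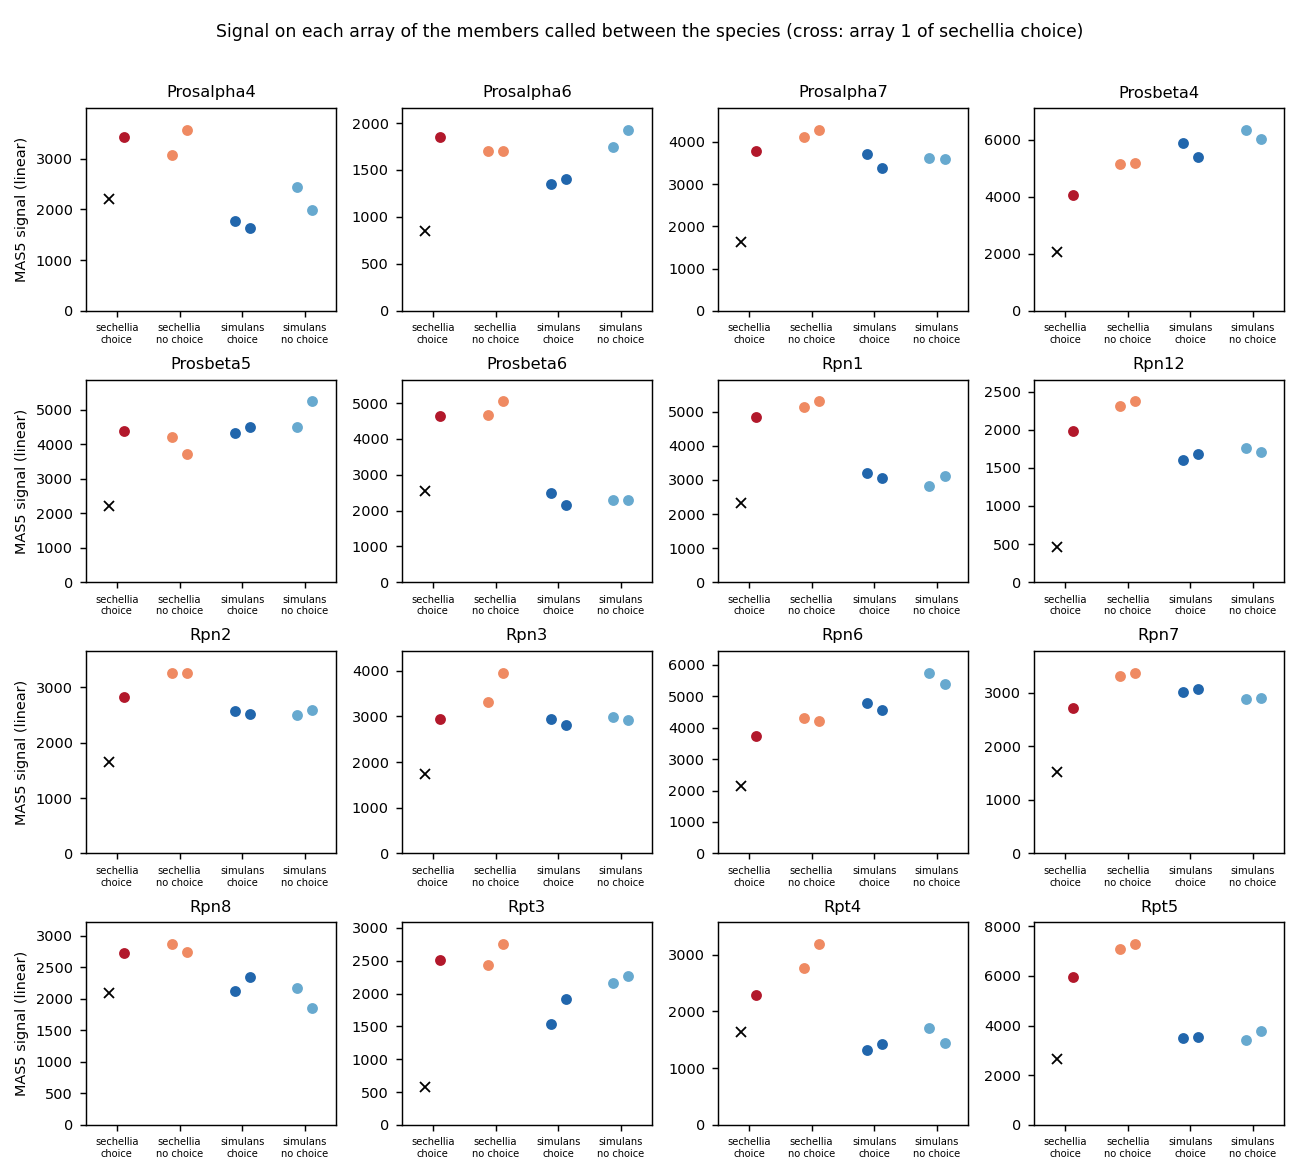
MAS5 signal on a linear axis for the 16 members called between the species under choice or no choice, 1 panel per gene, with sechellia left of simulans and choice left of no choice. Each point is 1 array, and the cross is array 1 of sechellia choice, which was left out of the fit. In Prosbeta6, Rpn1, Rpt4 and Rpt5 the 3 other sechellia arrays stand above all 4 simulans arrays.

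Under choice the comparison rests on 1 sechellia array against 2 of simulans. Of the 30 members tested 7 were higher and 2 lower in sechellia, against 19.4% of all tested probe sets and 37.3% of the bright ones. Higher calls were 9.61% of all tested probe sets and 19.0% of the bright ones, and lower calls 9.78% and 18.3%. The members called are 34.6% of the ordinary ones, which is near the bright background. In the core 3 of 12 were higher and 1 lower (median log2 difference 0.05), and in the regulatory particle 4 of 14 were higher and 1 lower (median 0.13), against a median of 0.07 over all tested probe sets. With all 8 arrays limma called no member, against 4.14% of all probe sets. In that fit 5 members and 3087 of the 13138 tested probe sets had an unadjusted p below 0.05. The 5 include Prosbeta2R2, which passed the dim filter only through array 1 of sechellia choice, and that reading enters this fit. With 8 arrays the median of the ordinary members was -0.36, because array 1 of sechellia choice reads all of them low.

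The genes with the largest differences under choice were largely those of no choice. Prosbeta6 gave 4650.5 on array 2 of sechellia choice, against 2481.4 and 2163.6 on the simulans choice arrays (log2 1.01 ± 0.10, adjusted p = 0.00032). Prosalpha4 gave 3426.5 in sechellia choice, against 1772.4 and 1638 in simulans choice (log2 1.01 ± 0.14, adjusted p = 0.00163). Array 1 of sechellia choice, apart, gave 2532.1 for Prosbeta6 and 2204.4 for Prosalpha4. Even that array stood above both simulans choice arrays for these 2 genes.

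Rpt5 gave 5959.5 in sechellia choice, against 3484.6 and 3530 in simulans choice (log2 0.76 ± 0.09, adjusted p = 0.000568), with 2673.1 on the array shown apart. Rpt4 gave 2296.9, against 1314 and 1417.2 (log2 0.75 ± 0.13, adjusted p = 0.00467), with 1638.9 apart. Rpn1 gave 4859.1, against 3203 and 3056.4 (log2 0.64 ± 0.09, adjusted p = 0.00176), with 2331.5 apart. For Rpt5 and Rpn1 the array shown apart lies below both simulans arrays, and with it the differences were 0.19 and 0.11.

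Rpt3 and Prosalpha6 were called higher under choice and not in no choice. Rpt3 gave 2504.1 in sechellia choice, against 1532.3 and 1921.3 in simulans choice (log2 0.55 ± 0.14, adjusted p = 0.0259). Prosalpha6, of the alpha ring, gave 1846.4 in sechellia choice, against 1346.6 and 1405.4 in simulans choice (log2 0.42 ± 0.10, adjusted p = 0.0173). Both calls were lost without array 1 of simulans choice (adjusted p = 0.0931 and 0.0775) and after median centring. On the array shown apart Rpt3 gave 578.2 and Prosalpha6 852.7, far below simulans, and with 8 arrays the differences turned to -0.51 and -0.13.

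The lower members under choice were Prosbeta4 and Rpn6. Prosbeta4 gave 4073.3 in sechellia choice, against 5884.1 and 5405.9 in simulans choice (log2 -0.47 ± 0.08, adjusted p = 0.00543), with 2048.3 apart. Rpn6 gave 3728.4, against 4771.1 and 4571.2 (log2 -0.32 ± 0.08, adjusted p = 0.0243), with 2132.2 apart. The Rpn6 call was lost without either simulans choice array (adjusted p = 0.119 and 0.0682).

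The genes called in no choice alone had smaller differences under choice. Rpn2 gave 2823 in sechellia choice, against 2579.9 and 2519.5 in simulans choice, at log2 0.15 ± 0.08. Rpn8 gave 2729.5, against 2126.8 and 2342, at 0.29 ± 0.12, and Rpn12 gave 1988.5, against 1599 and 1677.6, at 0.28 ± 0.09. Sechellia was above both simulans arrays for all 3, short of the threshold (adjusted p = 0.252, 0.122 and 0.0575). Rpn3 gave 2946, against 2941.1 and 2799.6, and Rpn7 gave 2715.8, against 3007.6 and 3067.2, at 0.04 ± 0.11 and -0.16 ± 0.08. Prosalpha7 gave 3796.6, against 3706.8 and 3373.2, and Prosbeta5 gave 4376.4, against 4323.8 and 4506.2, at 0.10 ± 0.09 and -0.01 ± 0.11. The array shown apart read 461.5 for Rpn12, 1521.7 for Rpn7, 1619.7 for Prosalpha7, 1655.9 for Rpn2, 1741.9 for Rpn3, 2085.2 for Rpn8 and 2208.2 for Prosbeta5, all below their level on array 2. The difference between the treatments for these genes is the interaction, which called none of the members.

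Across both treatments, 7 members were called in both and in the same direction: Prosalpha4, Prosbeta6, Rpn1, Rpt4 and Rpt5 higher, and Prosbeta4 and Rpn6 lower. These are 77.8% of the 9 members called under choice and 50% of the 14 called in no choice. Over all tested probe sets, the 1739 called in both and in the same direction were 68.3% of the calls under choice and 46.9% of those in no choice. Without an intensity trend only Prosbeta6 and Rpt5 were called in both treatments: Prosalpha4 lost its no choice call (adjusted p = 0.0712), Rpn1 and Rpt4 their choice calls (0.0538 and 0.0713), and Prosbeta4 and Rpn6 the calls in both. With 8 arrays no member was called in either. The comparisons share no array but share 1 estimate of spread per probe set. All 3 sechellia arrays lay above all 4 simulans arrays for 10 of 26 ordinary members, 7 of them in the regulatory particle, against 19.0% of all tested probe sets. They lay below for 3 members, Prosalpha3, Prosbeta4 and Rpn6, against 15.8%.

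The 10 ordinary members called in neither treatment included the subunit with the trypsin-like site, Prosbeta2, and the deubiquitinase Rpn11. Besides Rpt2 and Rpn13, given above, they were Prosalpha2, Prosalpha3, Prosalpha5, Prosbeta2, Prosbeta3, Prosbeta7, Rpn5 and Rpn11. Prosbeta2 gave 5378.2 and 5515.6 in sechellia no choice, against 5371.6 and 5458.9 in simulans no choice, at log2 0.01 ± 0.08. Prosbeta7 gave 4702.8 and 5149.4 in sechellia, against 4968.2 and 4817.1 in simulans, at 0.01 ± 0.07. The groups overlap for both genes. In no choice the others lay between -0.19, for Prosalpha3, and 0.15, for Rpn5. Prosalpha2 was closest to the threshold, under choice, where it gave 6450.6 in sechellia, against 5557.3 and 5326.6 in simulans (log2 0.25 ± 0.08, adjusted p = 0.0564).

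The core and the regulatory particle were set side by side on each array. For every member the log2 signal was taken relative to its own mean over the 7 arrays, so that levels of different probe sets are not compared. The median of the 14 regulatory particle members was 0.14 and 0.23 on the sechellia no choice arrays, against -0.07 and -0.07 on the simulans no choice arrays. The median of the 12 core members was 0.03 and 0.05 in sechellia no choice, against 0.03 and 0.07 in simulans no choice. In no choice the regulatory medians of the species do not overlap and the core medians do. Regulatory minus core was 0.11 and 0.17 in sechellia, against -0.10 and -0.14 in simulans. The median of the members' own species differences was 0.28 larger for the regulatory particle than for the core. By means the core did not overlap between the species either, at 0.07 and 0.12 in sechellia, against 0.01 and 0.02 in simulans. The regulatory means were 0.18 and 0.24, against -0.01 and -0.10. Regulatory minus core by means was 0.11 and 0.13 in sechellia, against -0.02 and -0.12 in simulans.

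Under choice both medians were higher on the sechellia array than on both simulans arrays. The regulatory median was 0.00 on array 2 of sechellia choice, against -0.13 and -0.14 on the simulans choice arrays, and the core median was 0.00, against -0.03 and -0.16. Regulatory minus core was 0.00 in sechellia, against -0.10 and 0.02 in simulans, so this difference overlapped between the species. On array 1 of sechellia choice, apart, both medians were far below the others, at -0.85 and -1.06. These medians and means are descriptions of lists chosen with results known, and no test is attached to them.

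**Figure D3:**
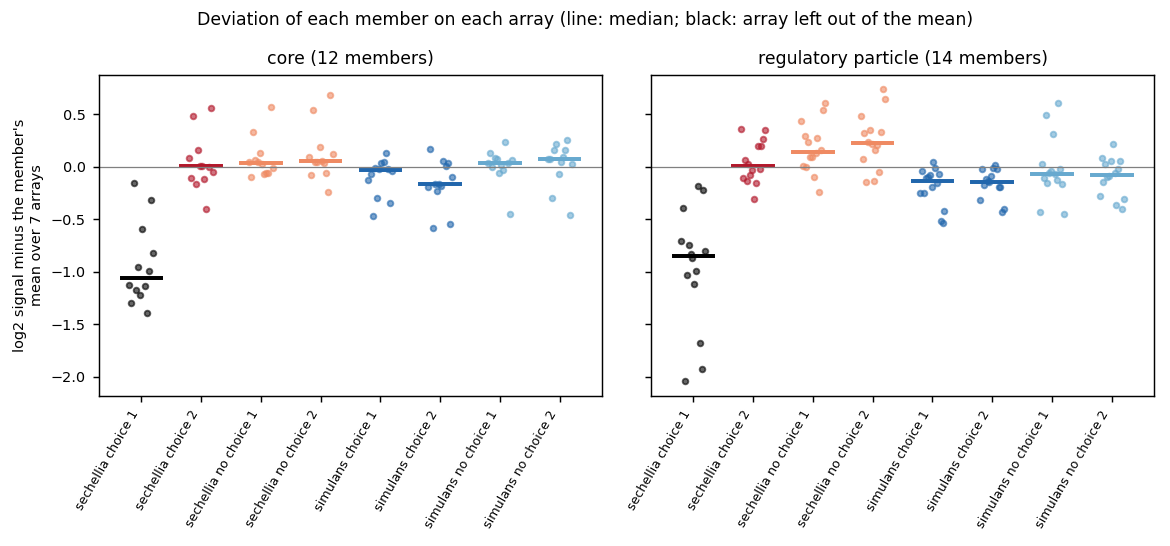
Log2 signal of each ordinary member minus its own mean over 7 arrays (y axis) on each array, for the core at left and the regulatory particle at right; lines are medians and black marks array 1 of sechellia choice. In no choice the regulatory particle medians are 0.14 and 0.23 in sechellia and both -0.07 in simulans, while the core medians lie between 0.03 and 0.07 on all 4 arrays.

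Choice itself called no member in either species. In simulans, where 2 arrays stand against 2, limma called 0 of 30 members, against 0.274% of all tested probe sets and 0.533% of the bright ones. The 10 members with an unadjusted p below 0.05 include Prosbeta2R2, which passed the dim filter only through array 1 of sechellia choice. Over all 13138 tested probe sets 1964 had an unadjusted p below 0.05. With 8 arrays limma also called 0, against 0.00761%. In that fit 1 member and 243 of all tested probe sets had an unadjusted p below 0.05. Of the 26 ordinary members 20 had lower means in choice, as did 6488 of all 13138 tested probe sets. The members' median log2 difference, choice minus no choice, was -0.11, against 0.00 over all tested probe sets. Both choice arrays lay below both no choice arrays for 14 of 26 members and above for 1, where 22.7% and 24.5% of all tested probe sets did so. The shares among the bright ones were not taken.

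All 6 alpha-ring members had lower means in simulans choice. Prosalpha6 gave 1346.6 and 1405.4 in simulans choice, against 1743.3 and 1925.6 in simulans no choice, at log2 -0.41 ± 0.08 (n = 2 arrays per group, adjusted p = 0.0796). Prosalpha4 gave 1772.4 and 1638 in choice, against 2448.3 and 1987.5 in no choice, at -0.37 ± 0.11 (adjusted p = 0.192). The groups do not overlap for either gene, and neither passed the test. Rpt3 and Rpt2 were at -0.37 ± 0.11 and -0.43 ± 0.18 (adjusted p = 0.19 and 0.311). The Rpt2 value rests on the high array 1 of no choice: the choice arrays read 1689.4 and 1556.7, against 2710.5 and 1752.7. The 4 Rpt ATPases measured had lower means in choice, with a median of -0.29. None was called, and Rpt5 was at -0.04 ± 0.07.

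In sechellia, where choice is its array 2, limma again called 0 of 30 members, against 2.49% of all tested probe sets and 6.29% of the bright ones. With 8 arrays it called 0 as well, against 0.0533%, at a median of -0.61 for the ordinary members. In that fit 7 members and 1865 of the 13138 tested probe sets had an unadjusted p below 0.05. With 7 arrays the median was -0.10, against 0.04 over all tested probe sets. Of the 26 ordinary members 21 were lower, as were 6053 of all 13138 tested probe sets. All these signs rest on 1 choice array, so members that are low together on it are not separate evidence. Array 2 of choice lay below both no choice arrays for 19 members and above both for 3, where 35.0% and 40.0% of all tested probe sets did so. Of the 14 regulatory particle members 13 had lower means in choice, including all 7 of the lid (median -0.19), and of the 12 core members 8 did (median -0.05).

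Prosbeta4 and Rpn7 came closest to the threshold in sechellia. Prosbeta4 gave 4073.3 in sechellia choice, against 5157.5 and 5182.1 in sechellia no choice, at log2 -0.34 ± 0.08 (adjusted p = 0.076). Rpn7 gave 2715.8 in choice, against 3305.4 and 3372.5 in no choice, at -0.30 ± 0.08 (adjusted p = 0.0914). Quantile normalisation moved Prosbeta4 past the threshold (-0.34, adjusted p = 0.0369) and median centring moved Rpn7 past it (-0.43, adjusted p = 0.0438). Rpt4 had the largest fall in its mean, with 2296.9 in choice, against 2767.8 and 3184.7 in no choice, at -0.37 ± 0.13 (adjusted p = 0.193).

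The difference between the choice effects, sechellia minus simulans, was not called for any member (0 of 30), against 2.79% of all tested probe sets and 7.73% of the bright ones. With 8 arrays limma called 0, against 0.0152% of all probe sets. In that fit 0 members and 898 of the 13138 tested probe sets had an unadjusted p below 0.05. Prosalpha6 was nearest, at log2 0.53 ± 0.13 (adjusted p = 0.0714): it gave 1846.4 in sechellia choice, against 1703 and 1702.8 in sechellia no choice, while its simulans values were lower in choice, as given above. After quantile normalisation it passed, at 0.57 (adjusted p = 0.0498), and with 8 arrays it was -0.03. Rpt2 was at 0.55 ± 0.28 (adjusted p = 0.368).

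**Figure D4:**
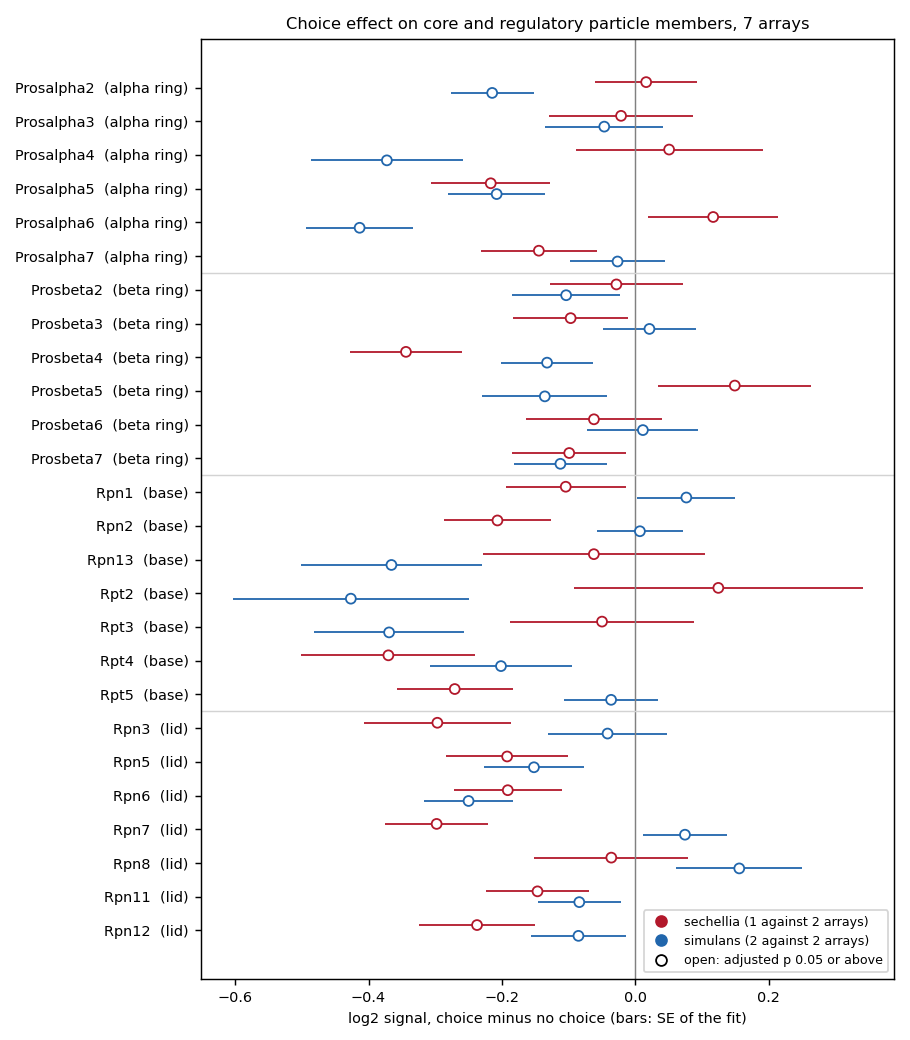
Choice effect on the 26 ordinary members, as log2 signal in choice minus no choice (x axis), in sechellia (red, 1 against 2 arrays) and simulans (blue, 2 against 2 arrays), with 7 arrays. Bars are the standard error of the limma fit, and all points are open because no adjusted p was below 0.05. Most points lie left of 0, 21 of 26 in sechellia and 20 of 26 in simulans, where 6053 and 6488 of all 13138 tested probe sets do.

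The testis-type paralogues were near background in these female bodies. Their medians were 31.85 on array 2 of sechellia choice, 23.05 and 30.25 in sechellia no choice, 14.35 and 16.2 in simulans choice, and 26.1 and 22.2 in simulans no choice, and the median Bacillus control lay between 12.3 and 21.5. None of the 14 exceeded the highest Bacillus control on all 7 arrays, and 4 exceeded the median control on all 7. These 4 were Prosalpha3T, Prosalpha6T, Prosbeta2R1 and Rpt4R. A reading at this level gives only a bound on the RNA, so the fitted differences below are no measure of fold.

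Prosalpha3T, the paralogue of Prosalpha3, gave 78.2 in sechellia choice, 114.9 and 70 in sechellia no choice, 68 and 81 in simulans choice, and 89.6 and 48 in simulans no choice. Prosalpha6T gave 83.8 in sechellia choice, 89.4 and 56.1 in sechellia no choice, 90.3 and 57.6 in simulans choice, and 45.5 and 19.3 in simulans no choice. Rpt4R, a paralogue of the ATPase Rpt4, gave 50.1 in sechellia choice, 62 and 31.5 in sechellia no choice, 94.1 and 110.5 in simulans choice, and 12.5 and 21.6 in simulans no choice. Both simulans choice arrays stood above both simulans no choice arrays for Prosalpha6T and Rpt4R. Neither choice effect passed the test (log2 1.28 ± 0.60, adjusted p = 0.371, and 2.63 ± 0.65, adjusted p = 0.13). Between the species in no choice the same genes were at 1.26 ± 0.60 (adjusted p = 0.162) and 1.43 ± 0.65 (adjusted p = 0.146), and in the interaction at -1.04 and -2.45 (adjusted p = 0.624 and 0.271).

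Prosbeta2R1 and Prosbeta2R2, paralogues of the subunit with the trypsin-like site, had arrays of 1 group that disagreed. Prosbeta2R1 gave 70.1 in sechellia choice, 24.5 and 63.2 in sechellia no choice, 22.7 and 30.7 in simulans choice, and 17.4 and 36.4 in simulans no choice. Prosbeta2R2 gave 61.5 in sechellia choice, 43.8 and 68 in sechellia no choice, 10.6 and 19.1 in simulans choice, and 32.1 and 118.7 in simulans no choice. Prosbeta2R2 passed the dim filter only through its reading of 288.4 on array 1 of sechellia choice, which was left out of the fit, so no test is given for it.

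The paralogues of Prosbeta5 were the dimmest. Prosbeta5R1 read 2.9 in sechellia choice, 8.9 and 7.9 in sechellia no choice, 5.4 and 6.5 in simulans choice, and 4.4 and 6.6 in simulans no choice. Prosbeta5R2 read 4.1 in sechellia choice, 9 and 9.3 in sechellia no choice, 10.1 and 3.3 in simulans choice, and 3.5 and 6.4 in simulans no choice. Neither exceeded the median control on any of the 7 arrays.

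The paralogues of Prosalpha4 also lay in the range of the controls. Prosalpha4T1 gave 8.6 in sechellia choice, 21.6 and 29.1 in sechellia no choice, 22.5 and 24.7 in simulans choice, and 71.7 and 22.8 in simulans no choice. Prosalpha4T2 gave 23.3 in sechellia choice, 18.2 and 13.8 in sechellia no choice, 46.3 and 74.8 in simulans choice, and 41.8 and 37.8 in simulans no choice. All 3 sechellia readings of Prosalpha4T2 are below the 4 of simulans, all under the highest control of their array.

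The paralogues of Prosbeta4 were near the controls as well. Prosbeta4R1 gave 57.1 in sechellia choice, 57.9 and 29 in sechellia no choice, 3.4 and 9.9 in simulans choice, and 34.4 and 10.2 in simulans no choice. Prosbeta4R2 gave 38 in sechellia choice, 8.4 and 17.8 in sechellia no choice, 16.5 and 11.9 in simulans choice, and 20.1 and 9.8 in simulans no choice. Prosbeta4R1 was above the median control on 4 arrays, the 3 of sechellia and 1 of simulans, and Prosbeta4R2 on 3.

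The regulatory particle paralogues other than Rpt4R were also dim. Rpt3R gave 25.7 in sechellia choice, 11 and 29.5 in sechellia no choice, 4.9 and 8.1 in simulans choice, and 11.6 and 3.2 in simulans no choice. Rpn12R gave 15.3 in sechellia choice, 6.7 and 43.6 in sechellia no choice, 7.8 and 12.3 in simulans choice, and 36.1 and 58.7 in simulans no choice. Rpn13R gave 15 in sechellia choice, 34.7 and 31 in sechellia no choice, 12.2 and 13.3 in simulans choice, and 12.2 and 25.4 in simulans no choice. Rpt3R exceeded the median control on 2 arrays, Rpn12R on 4 and Rpn13R on 5.

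Array 1 of sechellia choice read every one of the 14 higher than array 2, from 69.9 for Prosalpha4T2 to 771 for Rpn12R, with a median of 155.7 against a control median of 126.4 there. Only Rpn12R exceeded the highest control of that array. The dim filter took its mean over all 8 arrays, and 4 paralogues passed it: Prosalpha3T, Prosalpha6T, Prosbeta2R2 and Rpt4R. With the mean over 7 arrays, 29 members were tested instead of 30, without Prosbeta2R2. No paralogue was called in any of the 5 comparisons.

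Markers of other tissues were read on the same arrays. The 34 probe sets of a testis list summed to 2823.5 in sechellia choice, 2946.1 and 2606.5 in sechellia no choice, 2343.8 and 2780 in simulans choice, and 2508.2 and 2505.8 in simulans no choice, and to 10757.8 on the array shown apart. Between 22 and 27 of the 34 lay above the control median on the 7 arrays, and 5 to 16 above the highest control. The accessory gland list, another male tissue, summed to 652.2 to 819.3 over 13 probe sets, and to 3569.3 apart. All 22 probe sets of an ovary list lay above the control median. Their median was 1947.3 in sechellia choice, 1895.05 and 2082.25 in sechellia no choice, 4353.5 and 4115.3 in simulans choice, and 4297.55 and 4198.4 in simulans no choice, while their sums, 147184.9 to 215410, overlapped between the species. The ovary median moves with species, but the listed genes do not move together. On array 1 of simulans no choice the median lies between otu (3061.2) and an osk probe set (5533.9). These read 1401.8 and 1165 on array 1 of sechellia no choice. On the same arrays Cp36 gave 4517.4 in sechellia, against 18057 in simulans, while CycB gave 16177.7, against 16637.8. A body list of 4 probe sets had a median of 2553.1 in sechellia choice and 2587.7 and 2583.8 in sechellia no choice. In simulans its median was 1191.85 and 1253.9 in choice and 1437.65 and 1425.4 in no choice. On array 1 of no choice Lsp2 gave 1483.8 in sechellia, against 271.8 in simulans, while Act88F gave 5501.6, against 5908.3. The part of the ovary or of other tissues in the proteasome differences was not tested.

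**Figure D5:**
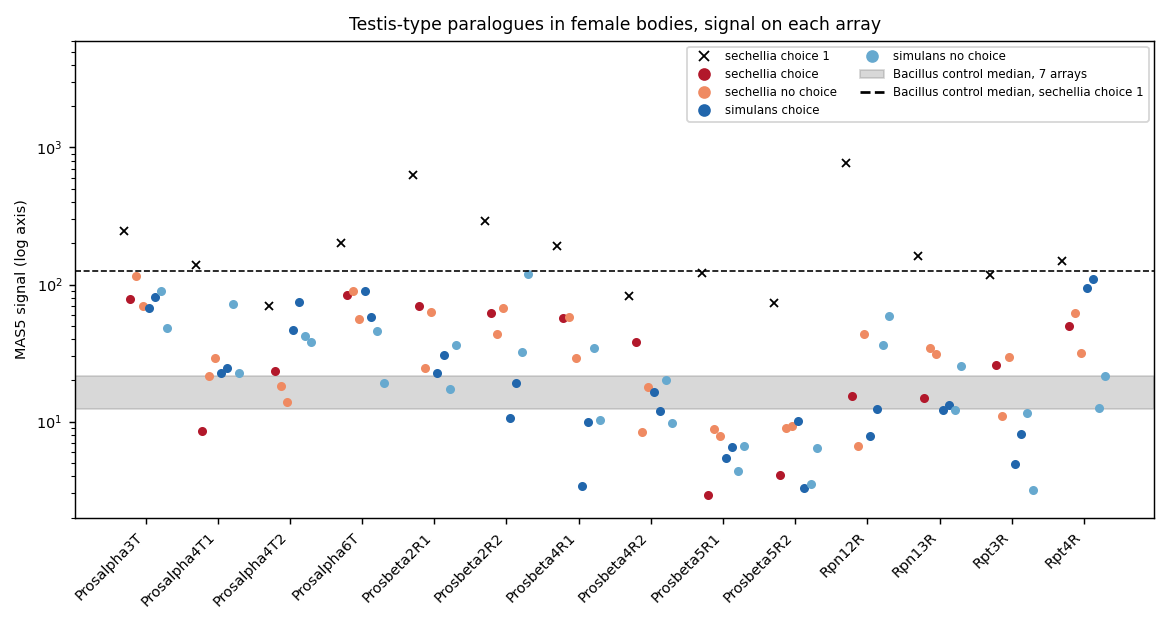
Signal of the 14 testis-type paralogues on each array (log axis). Grey is the range of the Bacillus control median over 7 arrays, 12.3 to 21.5, the dashed line is that median on array 1 of sechellia choice, 126.4, and crosses are that array. Prosbeta5R1 and Prosbeta5R2 lie below the grey band on all 7 arrays, and Prosalpha3T lies above it on all 7.

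Genes that build, activate or feed the proteasome differed in both directions. A list of proteasome partners and ubiquitin genes holds bright and dim probe sets, and 55 probe sets of 52 genes were tested. In no choice 11 were higher and 7 lower in sechellia, or 32.7%. That compares with 28.2% of all tested probe sets and 51.0% of the bright ones, and no background matched to the list's brightness was taken. With 8 arrays 1 was higher, Ube3a, and 0 lower, against 4.22% of all tested probe sets called in either direction. The median log2 difference over the list was 0.03. Under choice 5 were higher and 6 lower, where 9.61% and 9.78% of all tested probe sets were.

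Pomp, the chaperone that helps the core assemble, gave 1181.3 and 1138.4 in sechellia no choice, against 827.1 and 802.1 in simulans no choice (log2 0.51 ± 0.09, adjusted p = 0.00275). Under choice Pomp gave 1474.9 on array 2 of sechellia, against 713.2 and 678.4 in simulans (log2 1.08, adjusted p = 0.000271). REG, an alternative activator that caps the core without ATPases, gave 1417.8 and 1317.7 in sechellia no choice, against 2648.9 and 2377.1 in simulans no choice (log2 -0.88 ± 0.09, adjusted p = 0.000154). REG was also lower under choice, at -0.93 (adjusted p = 0.000634), with 1301.8 in sechellia, against 2583.7 and 2365.7 in simulans.

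Sem1, a small lid subunit that the symbol rule does not take in, was higher in sechellia no choice by 0.27 ± 0.07 (adjusted p = 0.0166) and at -0.16 under choice (adjusted p = 0.213). Usp14 and Uch, which remove ubiquitin, were higher by 0.37 ± 0.06 and 0.33 ± 0.06, and the ubiquitin ligases Ube3a, Ufd4 and sip3 by 0.81 ± 0.11, 0.23 ± 0.07 and 0.62 ± 0.13. Ubr3, a ligase with 3 probe sets, was called higher on 2, at 0.45 and 0.74. The F-box gene ago (0.51) and maf-S, a small Maf transcription factor gene (0.38), complete the higher calls. The lower calls were cnc, a transcription factor of the Nrf family known to control proteasome genes in flies (-0.52 ± 0.13), Cul1 and SkpA of the SCF ligases (-0.45 and -0.95), p47 (-0.39), and the ubiquitin genes RpL40 (-0.31) and Ubi-p5E (-0.49). Under choice Ube3a and Ufd4 were at -0.25 and -0.24 (adjusted p = 0.232 and 0.0815), p47 was at 0.42 (adjusted p = 0.0647), and Ubi-p5E was called higher in sechellia, at 0.49 (adjusted p = 0.0343), all of the opposite sign to no choice.

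With choice, 1 of the 55 probe sets was called in sechellia and 0 in simulans, against 2.49% and 0.274% of all tested probe sets, so the counts are near the background. The called one was Ubi-p5E, a polyubiquitin gene, at 1338.8 on array 2 of sechellia choice, against 504.2 and 479.7 in sechellia no choice (adjusted p = 0.00102). Array 1 of sechellia choice read 489.7, level with no choice. In simulans Ubi-p5E gave 996 and 918.5 in choice, against 740.4 and 646.1 in no choice, without overlap of the groups and short of the threshold (adjusted p = 0.112).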

How the data were processed

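The 8 arrays hold RNA of adult female bodies. The deposited values are probe-set intensity on a linear scale. The submitters' processing notes name MAS5, and the files show each array scaled so that the mean signal after trimming 2% at each end was 500 on each array. Signals were taken to log2. Of 18952 probe sets, 183 controls and the dimmest 30% by mean log2 signal were left out, and 13138 were tested. The 4 groups were fitted with limma 3.58.1 in R 4.3.3 (lmFit, eBayes with an intensity trend, no covariates, 3 residual degrees of freedom with 7 arrays, 4 with 8). A probe set is called where its p, adjusted by Benjamini-Hochberg over all tested, is below 0.05, and errors are standard errors of this fit. The script was tested on simulated data. With 2 arrays per group, their number limits the precision.

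Members, lists and tests were chosen with earlier results of these data known. Named members were those called in any comparison, the 3 with the largest difference each way in each comparison, and all testis-type paralogues. The partner list was fixed by symbol and includes genes with other roles, such as Nplp4 and Gp93. Symbols come from the array's D. melanogaster annotation. None of the 40 members matched the D. sechellia gene table by identifier, so no position or sequence is given. Of the ordinary members' probe sets, 4 carry the suffix s_at, which marks probes that can match several transcripts (Prosbeta5, Prosbeta7, Rpn6 and Rpn13). Alternatives were another normalisation, filter, variance model, offset of 16 before log2, only the arrays compared, a replicate block, and each array left out.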

Additional observations from a re-analysis of the deposited data

How the results depend on the processing

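With all 8 arrays the members called between the species came to 0 in no choice and 0 in choice, against 14 and 9 with 7; without an intensity trend they came to 5 and 3. Leaving out 1 of the 7 arrays gave 9 to 14 in no choice (9 without array 2 of sechellia no choice) and 6 to 9 in choice. Quantile normalisation called 1 member, and median centring 1, for choice in sechellia, and quantile normalisation 1 for the interaction. Under the other alternatives these counts stayed within 1.5 times of those with 7 arrays. The regulatory minus core difference of 0.28, between medians of the members' own species differences, ranged from 0.24 to 0.32. Taking the highest Bacillus control as background left 0 testis-type paralogues above it on all 7 arrays, against 4.

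With 8 arrays the sign turned for Prosalpha6 (-0.13) and Rpt3 (-0.51) between species in choice, and in the interaction for Prosalpha6 (-0.0272), Rpt2 (-0.28) and Prosalpha3T (0.45). The cause of these changes beyond the added array was not tested. Leaving out 1 array gave ranges that cross 0 for choice in sechellia for Prosbeta2R2 (-0.14 to 0.49), Prosalpha6T (-0.0933 to 0.58) and Rpt4R (-0.31 to 0.67), for Prosalpha3T with choice in simulans (-0.27 to 0.63) and in the interaction (-0.83 to 0.0741). None of the Prosalpha6T, Rpt4R and Prosalpha3T results was called, and no test is given for Prosbeta2R2.

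Arrays share only a number: array 2 minus array 1 correlated between groups at -0.002 to 0.022 over probe sets. With the number as a replicate block, 12 members were called in no choice, 9 in choice, and 0 in the other comparisons, and Prosbeta2R2 turned to -0.39 for choice in sechellia. Dim signals near the Bacillus controls limit what can be said of the testis-type paralogues.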
